A study of Homo sapiens with 9 samples.

Results

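The loci described here are those of 8 genes of the senescence-associated secretory phenotype: the cytokines IL6, IL1A, IL1B and LIF, the chemokines CXCL8 and CXCL1, and the matrix proteases MMP1 and MMP3. EGR1 ChIP-seq peaks were chosen by position, as those whose summit lay in 1 of 6 fixed hg19 windows around these genes, 450 kb in all. Of 28625 peaks in the 2 deposited lists, 9 met this rule: 7 of the 16285 peaks listed for induced cells and 2 of the 12340 listed for induced cells given clobetasol. The windows and genes were selected on earlier results of these data, so the presence of a peak is a description and was not tested.

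The cells were BJ-hTert-B-RAF-V600E, human fibroblasts immortalised with telomerase that make the oncoprotein BRAF V600E when doxycycline is added. All 3 groups of 3 libraries were immunoprecipitated with the same antibody against EGR1 after 24 h: proliferating cells given ethanol and DMSO, cells induced with 1000 ng/mL doxycycline and given DMSO, and cells induced with 1000 ng/mL doxycycline and given 2 nM clobetasol, a potent synthetic glucocorticoid. Sample titles name DMSO for the clobetasol group too. All groups carry the inducible transgene, and the labels do not state whether replicate libraries derive from independent cultures or whether the line is 1 clone. Each list compares the 3 pooled libraries of 1 treated group with the 3 pooled proliferating libraries, so no value below has a replicate spread, and every interval covers counting error only. Proliferating replicates 2 and 3 have library names that repeat 1 sample name, and it is not known whether the control shared by both lists was made of 3 different samples. A median of 64 fragments covered the summits listed for induced cells and 75 those listed with clobetasol, and the clobetasol pool was deeper by a factor of 1.21.

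Cells that enter senescence after oncogene activation secrete cytokines, chemokines and proteases. IL-1 alpha (IL1A) at the cell surface and IL-1 beta (IL1B) signal to NF-kB, which with C/EBP factors drives IL6 and CXCL8, and glucocorticoids are known to dampen this secretion. EGR1 is a zinc finger factor induced by the RAF, MEK and ERK kinases that binds GC-rich DNA.

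Among the 6 windows, the LIF window on chromosome 22 held the strongest EGR1 gain, the window of IL1A and IL1B held 3 gains of 27 to 117 fragments, the window of MMP1 and MMP3 held 1 of 51 fragments, and those of IL6, CXCL8 and CXCL1 held none. With clobetasol, peaks were listed in the LIF window alone of the 6. In the terms used here, fold is the authors' ratio of the treated pool to the local proliferating level at the summit, and fragments are the pileup over the summit recovered from the authors' fold and p-value. An induced peak was present in 3 of 6 windows and a clobetasol peak in 1 of 6. When chromosomes 1 to 22 and X were cut into tiles of the windows' sizes, 18.1% of 50 kb tiles, 20.8% of 60 kb tiles and 31.3% of 110 kb tiles held an induced summit, and 14.9%, 17.2% and 26.8% held a clobetasol summit. These tiles include sequence gaps and gene-free regions, and with 6 windows picked for their genes no excess or deficit is read from the counts.

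**Figure D1:**
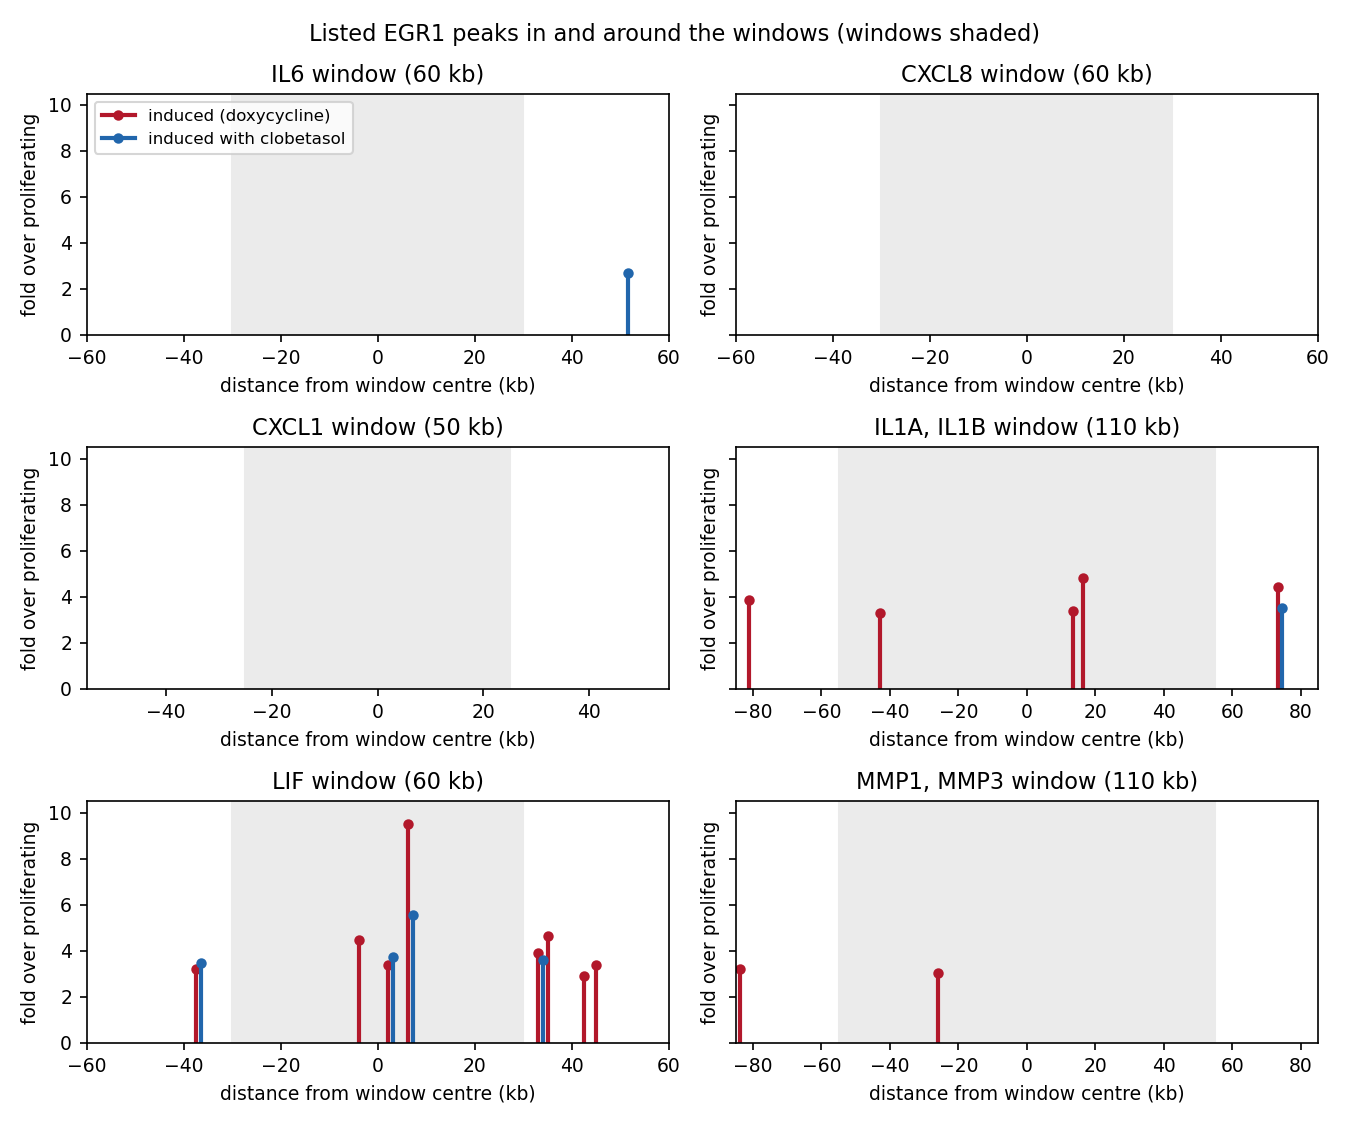
Listed EGR1 peaks by distance of the summit from the window centre in kb (x axis) and the authors' fold over proliferating cells (y axis), in each window (grey) and 30 kb to either side, with the lists drawn side by side. The LIF window holds 3 induced and 2 clobetasol peaks, and the IL6, CXCL8 and CXCL1 windows hold none.

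LIF, a cytokine of the IL-6 family that signals through gp130 and STAT3, lies beside OSM, which encodes the related cytokine oncostatin M, in the RefSeq gene order. The window, 30.61 to 30.67 Mb on chromosome 22, held 3 induced peaks within 10.0 kb. A peak here is therefore named by position and not given to LIF or OSM, since no hg19 annotation was used. The strongest peak, chr22:30646351-30647022, held 318 fragments in the induced pool over a proliferating level of 32.5 at the same depth, a fold of 9.51 with a −log10 q of 187.3. By q it ranked 25th and by fold 26th of 16285 induced peaks, so 99.8% of the list had a lower fold. The proliferating pool itself held 59.0 fragments there before scaling, 5.02 times the lowest control level of the list, so the site already carried signal above that lowest level in proliferating cells. Whether this was EGR1 signal or other background cannot be told apart without an input control.

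The other peaks of the LIF window were wide, at 1012 and 975 bp against a list median of 423 bp, and nearer to the list medians in fold and q. The peak at chr22:30636555-30637566 held 43 fragments over a proliferating level of 8.83 (fold 4.48, −log10 q 13.24). The peak at chr22:30641692-30642666 held 49 over 13.8 (fold 3.38, −log10 q 10.17). For comparison, the median induced peak had a fold of 3.64 and a −log10 q of 14.9. The LIF window took 62.9% of the fragments summed over the 7 induced summits.

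The LIF window differed between the pools at its strongest site. With clobetasol the peak at chr22:30646434-30647002 held 217 fragments over a proliferating level of 38.2, a fold of 5.56, with summits 9 bp apart in the 2 lists. Scaled to the depth of the induced pool this is 178.6 fragments against 318, a ratio of 0.562 (exact Clopper-Pearson 95% interval 0.470 to 0.670). The proliferating fragments recovered from the 2 lists at this site were 59.0 and 57.0, so nearly the same control level entered both comparisons. For the excess over the control level the ratio was 0.516. With clobetasol the site ranked 173rd by q of 12340 peaks, with a fold above that of 98.1% of the list.

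At the neighbouring shared site the pools were close. At chr22:30642428-30642747 the clobetasol pool held 58 fragments over 14.7 (fold 3.75), which is 47.7 after scaling against 49, a ratio of 0.974 (exact 95% interval 0.655 to 1.46). That interval holds an unchanged level as well as losses and gains within its bounds, so at this depth no direction could be read for this site. The interval of the strong site, up to 0.670, and that of the weak site, from 0.655, overlap slightly, and the difference between the sites was not tested. The peaks of the 2 lists overlap by 239 bp here, 24.5% of the induced and 74.7% of the clobetasol peak, with summits 21 bp apart. The third induced peak of the window, at chr22:30636555-30637566, had no overlapping clobetasol peak.

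Over all 10429 shared sites the median ratio was 0.798 (interquartile range 0.706 to 0.911), and 87.4% had a ratio below 1. Both LIF sites did too, but the weak one was above 1 without scaling for depth (1.18) and for the excess over control (1.01). The strong LIF site was lower by over 1.5 times, as were 16.5% of all shared sites, while 0.24% were higher by over 1.5 times. Of all shared sites 3.11% had a lower ratio than it. Among the 219 shared sites whose induced −log10 q was 100 or more, the median was 0.743 (interquartile range 0.687 to 0.819) and 7 had a lower ratio (3.20%). The weak LIF site lay above the median of the 3143 shared sites with a −log10 q of 10 to 20, which was 0.823 (0.739 to 0.937). To be listed with clobetasol it needed 45 fragments, a ratio of 0.756, and a lower ratio would not have counted as shared. Its −log10 q of 10.17 was near the lower bound of its class, and the median of the class from 5 to 10 was 0.965 (0.878 to 1.07). These classes were made on the induced list, which also gives the denominator of the ratio. They compare 1 pool with 1 pool, and the yield of the immunoprecipitation in each pool was not measured.

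**Figure D2:**
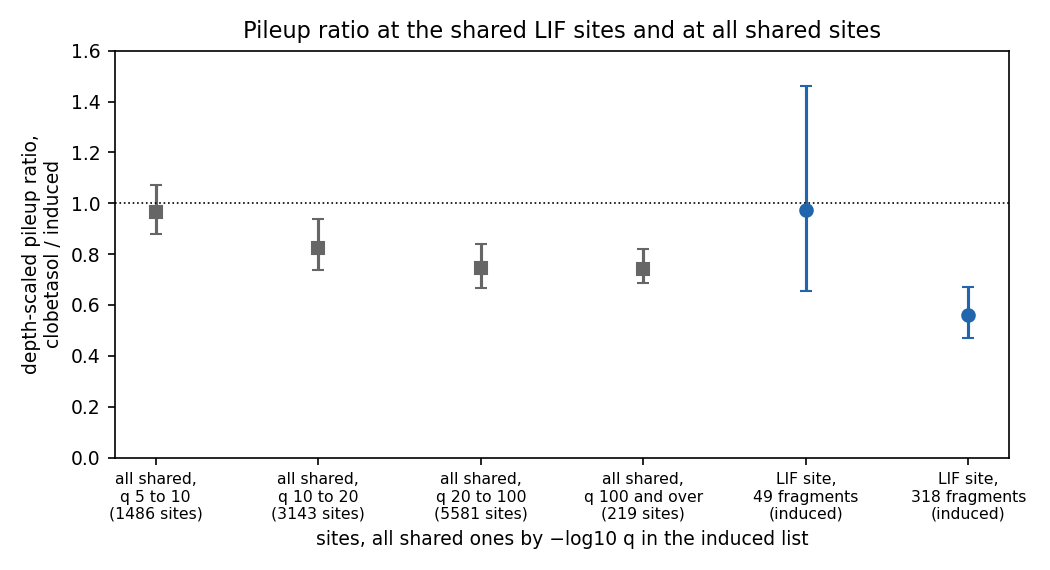
Depth-scaled pileup with clobetasol over that without it (y axis) for all shared sites by class of −log10 q in the induced list (grey squares, median with interquartile range) and for the 2 shared LIF sites (blue circles, exact 95% interval). The LIF site of 318 fragments lies at 0.562, under the lower quartile of 0.687 in its class, and the LIF site of 49 fragments lies at 0.974.

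IL1A and IL1B encode the 2 agonists of the IL-1 receptor and neighbour each other in the RefSeq order, between CKAP2L, a mitotic spindle protein, and IL37. Their window, 113.51 to 113.62 Mb on chromosome 2, held 3 induced peaks. Without an hg19 annotation these peaks too are named by position and not given to IL1A, IL1B or CKAP2L. The peak nearest the lower edge, chr2:113522282-113522642, held 117 fragments over a proliferating level of 34.8 (fold 3.30, −log10 q 24.13). It had the highest control level of the 7 induced peaks, 5.36 times the lowest of the list. The others were a pair with summits 3.12 kb apart, 56.4 kb further along the chromosome. At chr2:113581694-113582111 there were 47 fragments over 8.94 (fold 4.83, −log10 q 15.83), a fold above that of 84.4% of the list. At chr2:113578720-113578998 there were 27 over 7.31 (fold 3.37), the weakest peak of the 9, with a −log10 q of 5.38 close to the lowest listed value of 5.00.

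The window of IL1A and IL1B held no clobetasol peak. For a site without a peak the clobetasol pileup is not known, but the number of fragments that would have reached the lowest listed −log10 p can be computed at the same proliferating level. At the 117-fragment site 84 fragments would have been enough, a depth-scaled ratio of 0.591, where an unchanged level would have given 142.1. At the 47-fragment site 34 would have been enough (ratio 0.595), and at the unmatched 43-fragment peak of the LIF window also 34 (ratio 0.651). At the 27-fragment site 30 were needed where an unchanged level would have given 32.8 (ratio 0.915), so the missing peak there says little about its level. A bound on the ratio needs the listing threshold to be the only filter and the proliferating level to be the same in both lists. Under these conditions the 117-fragment and 47-fragment sites lay below ratios of about 0.591 and 0.595 in the clobetasol pool. These limits hold for the observed pileups only and carry no interval for counting error, which weighs more at 47 fragments than at 117. Whether peaks were removed by another filter is not given in the sources used here.

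Both lists had peaks on either side of this window. The nearest induced peaks lay 25.7 kb below it, with a fold of 3.88, and 19.0 kb above it, with a fold of 4.45. The upper one had a clobetasol peak of fold 3.52 at nearly the same place, 18.9 kb above the window. Below the window the nearest clobetasol peak, 39.0 kb away, had a fold of 7.15 and 66 fragments.

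MMP1, the interstitial collagenase, and MMP3, stromelysin 1, are adjacent in a cluster of metalloprotease genes, with MMP10 before and MMP12 after them in the RefSeq order. Their window, 102.63 to 102.74 Mb on chromosome 11, held 1 induced peak. It was the widest of the 7, spanning 1920 bp at chr11:102658526-102660445, and held 51 fragments over a proliferating level of 16.0. Its fold of 3.06 was the lowest of the 7 and above that of 22.2% of the list, with a −log10 q of 8.95. No clobetasol peak was listed in the window, where 49 fragments would have been enough and an unchanged level would have given 62.0 (ratio 0.791). The nearest induced peak below lay 28.2 kb from the window, with a fold of 3.22, and the nearest above it lay 3150 kb away. Clobetasol peaks were listed 306 kb below and 125 kb above. The induced peak of this window is likewise named by position and not given to a gene.

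**Figure D3:**
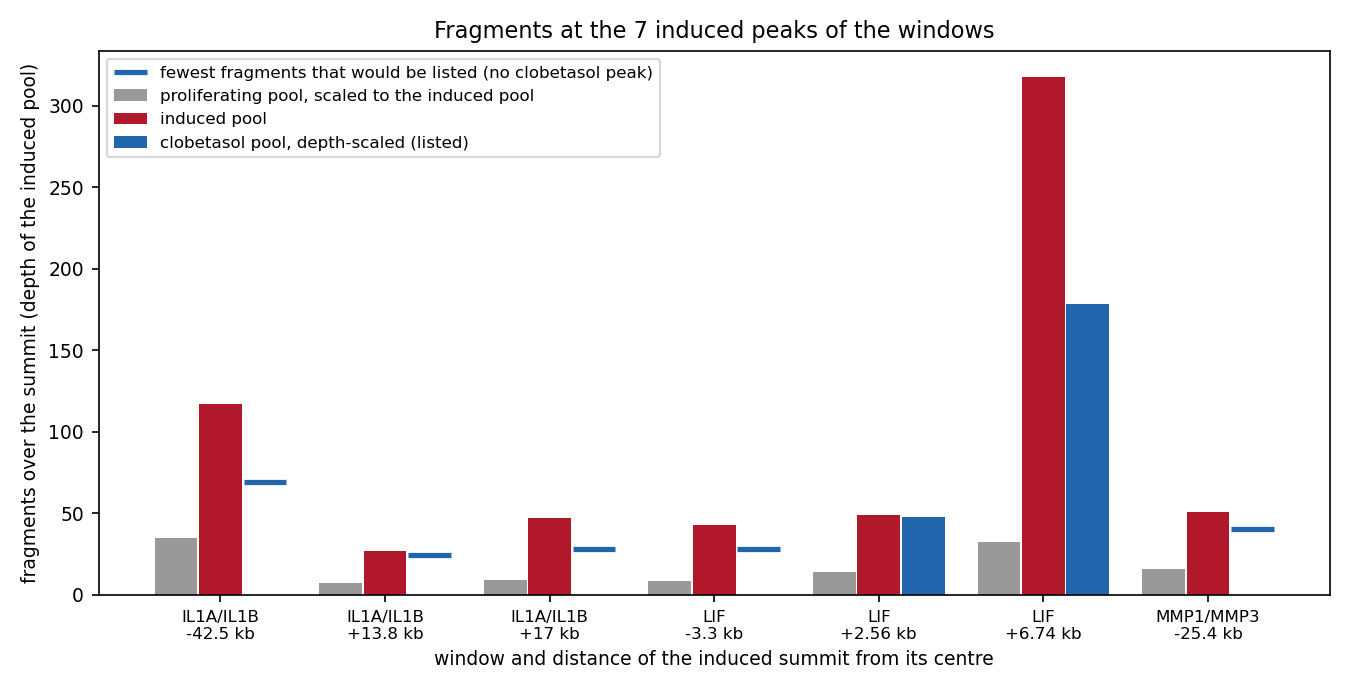
Fragments over the summit at the 7 induced peaks (y axis, all at the depth of the induced pool), by window and distance from its centre (x axis): local proliferating level (grey), induced pool (red) and clobetasol pool where a peak was listed (blue bars), with blue lines at the fewest fragments that would have been listed where it was not. The LIF peak 6.74 kb from the centre went from 318 to 178.6 fragments, and 5 induced peaks have no clobetasol bar.

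Over the 7 induced peaks, 2 had an overlapping clobetasol peak (28.6%), against 64.0% of all induced peaks. The 7 peaks lie in 3 windows and come from 1 pool, so they are not independent and no interval is given for their share. The share was higher for stronger peaks: it was 28.7% of all induced peaks at a −log10 q of 5 to 10, 63.3% at 10 to 20 and 94.5% at 20 and over. In these classes the windows had 0 of 2, 1 of 3 and 1 of 2 induced peaks with a clobetasol peak. The peak of the last class without one was the 117-fragment site in the window of IL1A and IL1B. In the other direction, both clobetasol peaks overlapped an induced peak, as did 86.4% of all clobetasol peaks. Both lists share the proliferating pool as their control.

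**Figure D4:**
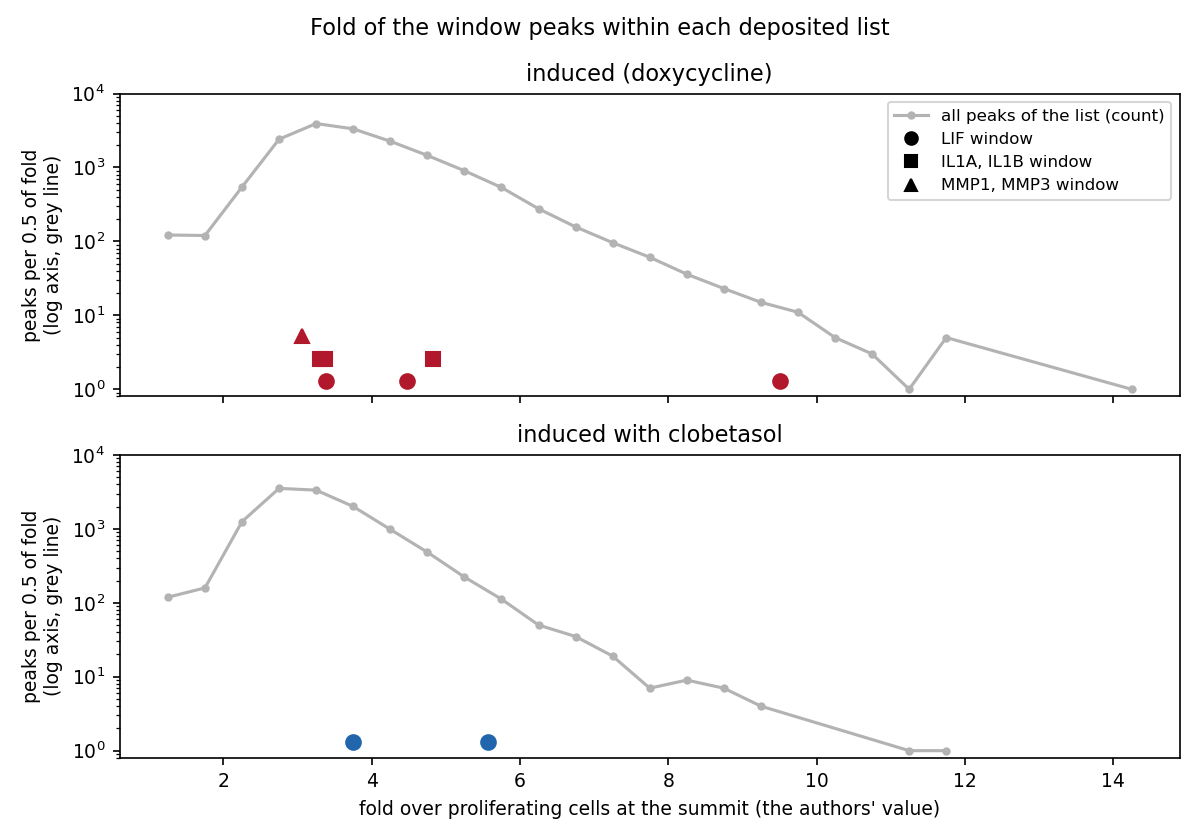
Authors' fold of the window peaks (coloured symbols; their height separates the windows and has no scale) within each list, whose number of peaks per 0.5 of fold is the grey line (log y axis). Of the 7 induced peaks, 4 lie below the list's median fold of 3.64 and the strongest LIF peak lies at 9.51.

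IL6, the cytokine most used to mark the secretory phenotype, and the chemokine genes CXCL8 and CXCL1, whose products attract neutrophils through CXCR2, had no listed peak in their windows in either list. The IL6 window spans 22.74 to 22.80 Mb on chromosome 7. The nearest induced peaks lay 176 kb below and 94.1 kb above it (folds 4.23 and 3.05). With clobetasol a peak lay 21.2 kb above the window, at chr7:22821119-22821362, with a fold of 2.70 and 65 fragments, and no induced peak was listed at that place. The windows of CXCL8 (74.58 to 74.64 Mb) and CXCL1 (74.71 to 74.76 Mb) on chromosome 4 lie in a single stretch of 780 kb between listed induced summits. The peaks that bound it were at chr4:74123660-74125074 and chr4:74904225-74904771, with folds of 3.45 and 2.85, and the clobetasol list had peaks at both places (folds 3.43 and 2.47). In the RefSeq order this stretch also takes in CXCL6, which lies between CXCL8 and CXCL1. A site at the lowest control level needed 25 fragments to be listed in the induced pool and 28 in the clobetasol pool, so weaker gains in these windows were not detectable.

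The promoters of these 3 genes are shown because their windows had no listed EGR1 gain. Whether their letters bear on that result was not tested. The sequences are the 250 bases before the RefSeq gene start in GRCh38.p14, a different build from that of the peaks. All are on the + strand. IL6 is at chr7:22726950-22727199, CXCL8 at chr4:73740319-73740568 and CXCL1 at chr4:73869143-73869392 in that build. Capitals mark matches to GCGNGGGCG, the 9-base EGR1 site, its 7-base part GNGGGCG, the AP-1 site TGANTCA and the NF-kB letters GGNNTTTCC, searched on both strands. Every match of the 9-base site holds the 7-base part.
IL6: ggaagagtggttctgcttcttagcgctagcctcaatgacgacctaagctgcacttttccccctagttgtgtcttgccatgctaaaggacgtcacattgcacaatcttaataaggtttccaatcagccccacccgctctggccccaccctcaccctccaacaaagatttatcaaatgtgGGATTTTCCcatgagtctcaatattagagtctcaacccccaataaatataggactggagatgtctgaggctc
CXCL8: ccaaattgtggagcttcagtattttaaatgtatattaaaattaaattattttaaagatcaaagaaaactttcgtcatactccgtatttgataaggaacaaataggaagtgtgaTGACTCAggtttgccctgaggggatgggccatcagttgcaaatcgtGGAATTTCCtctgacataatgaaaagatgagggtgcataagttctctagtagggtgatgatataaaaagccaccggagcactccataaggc
CXCL1: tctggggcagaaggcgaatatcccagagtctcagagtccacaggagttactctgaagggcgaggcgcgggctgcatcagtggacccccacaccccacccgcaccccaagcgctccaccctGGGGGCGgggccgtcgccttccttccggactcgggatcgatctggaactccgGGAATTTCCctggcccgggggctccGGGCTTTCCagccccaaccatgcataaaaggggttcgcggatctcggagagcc

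The 9-base EGR1 letters were in 0 of the 6 promoter sequences that RefSeq's table gave for 5 of the 8 genes (IL6, CXCL8, CXCL1, IL1B and a pair of starts of IL1A), and in 8.41% of 34788 promoters of the same length. The genes LIF, MMP1 and MMP3 were not matched. The 7-base part was in the CXCL1 promoter, 130 to 124 bases before the start, and in 37.4% of all promoters. The NF-kB letters were 72 to 64 bases before the IL6 start, 91 to 83 before the CXCL8 start, and both 78 to 70 and 53 to 45 before the CXCL1 start, and in 5.48% of all promoters. The AP-1 letters were 137 to 131 bases before the CXCL8 start and in both IL1A promoters, which share part of their sequence, and in 6.59% of all promoters. IL1B held none of these matches. The CXCL1 promoter was 65.6% G and C, against a median of 58.0% over all promoters, while those of IL6 (47.6%), IL1B (40.0%) and CXCL8 (37.6%) were lower. These matches describe the letters only, and a window without them says nothing about binding.

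The numbers in the peak names leave room for peaks that were numbered but not listed. They run in genome order and reach 52393 with induction and 26677 with clobetasol. Between the listed peaks that flank a window, the induced list skips 6 numbers around IL6, 7 across the stretch with CXCL8 and CXCL1, 3 around IL1A and IL1B, 8 around LIF and 39 around MMP1 and MMP3, where the flanking induced summits lie 3290 kb apart. In the clobetasol list 4, 11, 2, 2 and 4 are skipped, the last between flanking summits 541 kb apart. The 3 induced peaks of IL1A and IL1B carry consecutive numbers, so no numbered peak was left out between them. Where in each span the skipped numbers lay, and why they were not listed, is not given in the sources used here.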

How the data were processed

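EGR1 ChIP-seq was carried out on 9 libraries in 3 groups. Per the submitters' processing notes, the build was hg19 and the tools were MACS2 2.1.1.20160309 and SAMtools 1.3.1, with BWA, FastQC 0.11.5, cutadapt 1.15 and bcl2fastq. The sources used here do not give their settings. The deposited peak names show that the authors merged the 3 replicates of each treated group and set them against the merged proliferating libraries. The deposited lists give per peak the authors' fold (a ratio), the −log10 p and −log10 q, and a score equal to the −log10 q times 10 without its decimals in all 28625 rows. The lowest −log10 q was 5.00 in both lists.

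The members, windows and gene lists were chosen with earlier results of these data known. Every window and each of its peaks is described. A peak counted as shared at an overlap of at least 1 bp. Pileup and control level were solved per peak from 2 relations: each plus 1 gives the fold as their ratio, and a Poisson tail gives the p-value. The pileup came out within 0.05 of a whole fragment for 99.6% of induced and 99.5% of clobetasol peaks. The steps whose multiples best fitted the control levels were 0.552 and 0.670, and their ratio (1.21) was taken as the depth ratio of the pools. Not every level was a whole multiple. At the 27-fragment and 47-fragment sites in the window of IL1A and IL1B the levels equalled 13.25 and 16.2 steps. A control level is therefore not always a whole number of proliferating fragments. Intervals are exact 95% (Clopper-Pearson) intervals. The recovery was tested on simulated data whose control levels were all whole multiples of a step. Total reads per library were not analysed here. No p-value was computed, since each group is 1 pool. The listing limits and the promoter search were added after the peaks were seen. Alternatives were a −log10 q of at least 10, other overlap rules, no depth scaling and the excess over control. Python 3.11.15, numpy 2.4.6, pandas 2.3.3, scipy 1.17.1 and matplotlib 3.10.9 were used.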

Additional observations from a re-analysis of the deposited data

How the results depend on the processing

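No paired analysis was possible because the deposited lists hold pooled replicates, and for the same reason no replicate could be left out. The number of peaks in the windows was 7 induced and 2 clobetasol as listed, 5 and 2 at a −log10 q of at least 10, and 7 and 2 when any overlap with a window counted. The share of induced window peaks with a clobetasol peak was 28.6% by overlap and by summits at most 100 bp apart. It was 14.3% with a reciprocal overlap of at least 50%, under which the weak LIF site no longer counted as shared, and 40.0% of 5 peaks when a −log10 q of 10 was required throughout. Over all induced peaks these settings gave 64.0%, 61.5%, 55.3% and 63.8%. The median ratio of the 2 shared LIF sites, 0.768, was 0.933 without scaling for depth. Without scaling the strong site had a ratio of 0.682 and the weak site 1.18, so the weak site's side of 1 depended on the depth factor. With the excess over the control level, still scaled for depth, the median was 0.763, and the weak site's ratio was 1.01. The weak site's side of 1 therefore also depended on whether the control was subtracted. The median fold of induced window peaks was 3.38, and 4.48 at a −log10 q of at least 10. The depth limits the weaker sites: of the 7 induced peaks, 5 held 51 fragments or fewer.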
